A study of Mus musculus with 4 samples.

Results

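Heat shock proteins and J-domain cochaperones form the machinery that folds, refolds and sorts proteins. The genes described here were chosen by symbol alone from the deposited table of normalized counts: the numbered members of the *Dnaja*, *Dnajb*, *Dnajc*, *Hspa* and *Hspb* series, every symbol that begins with *Hsp90*, and *Hspd1*, *Hspe1* and *Hsph1*, with *Dnajc11* left out. This gave 56 of 12693 gene symbols. Grouped by symbol and family, they comprised 9 members of the HSP70 family, 3 of the HSP110 family, 3 of the HSP90 family, the 2 subunits of the mitochondrial chaperonin, 5 of the *Hspb* series, and 4, 10 and 20 J-domain proteins of classes A, B and C. A further 13 genes of these series were not listed in the table: *Hspa1b*, *Hspa1l*, *Hspb3*, *Hspb7*, *Hspb9*, *Dnajb3*, *Dnajb7*, *Dnajb8*, *Dnajc6*, *Dnajc22*, *Dnajc25*, *Dnajc27* and *Dnajc28*.

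Cells bearing CD31, a surface protein of endothelial cells, were sorted from the cerebral cortex of C57BL/6 mouse embryos at embryonic day 18 and their RNA was sequenced with Smart-seq2, which amplifies full-length cDNA from little RNA; for tissue and material, the sample labels name brain and total RNA. The 2 *Foxq1* cKO samples came from FOXQ1fl/fl;Tie2-Cre embryos, in which a Cre recombinase driven by the *Tie2* promoter removes the floxed *Foxq1* alleles in vascular endothelial cells. The 2 wild-type samples are labelled WT, and the methods name littermates without the Cre transgene as controls. Tie2-Cre is also known to act in blood cell lineages, so the deletion need not be limited to endothelium. The sources used here do not say whether a sample is 1 embryo or a pool, so p-values measure only the spread between these samples, which may be technical. Summed over the genes of the table, the recovered reads came to 21466436 and 17901203 for wild-type replicates 1 and 2 and to 15827166 and 16963866 for *Foxq1* cKO replicates 1 and 2, an order kept in all that follows. The chaperone genes made up 0.874% and 0.924% of all normalized counts in wild-type, against 0.876% and 0.904% in *Foxq1* cKO.

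HSP70 proteins bind exposed hydrophobic stretches of a client in a cycle driven by ATP. J-domain proteins deliver the client and trigger ATP hydrolysis, and HSP110 proteins release the nucleotide so that the cycle can begin again. HSP90 acts later on clients such as kinases and steroid receptors, small heat shock proteins hold unfolded proteins without ATP, and the HSP60 and HSP10 chaperonin encloses proteins in the mitochondrial matrix. Heat shock factor 1 induces many of the cytosolic genes under proteotoxic stress, whereas the endoplasmic reticulum and the mitochondria are served by members of their own. In brain endothelium, these systems support the folding of membrane and secreted proteins of the vessel wall.

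The targeted gene was lower in both *Foxq1* cKO samples. *Foxq1*, a forkhead transcription factor, stood at 353 and 297 normalized counts in wild-type, against 5.44 and 32.6 in *Foxq1* cKO. Neither *Foxq1* cKO value came near a wild-type value, and the mean over *Foxq1* cKO was 5.84% of that over wild-type. On log2 values the difference was -4.47 with a standard error of 1.04, taken between means of log2 of the normalized count plus 1 (limma, unadjusted p = 0.00507). The size depends on the low counts: it was -4.59 with 0.1 and -4.05 with 5 in place of the added 1, -3.28 without *Foxq1* cKO replicate 1 and -5.66 without replicate 2.

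Markers were used to check the sorted cells. The 10 endothelial markers summed to 315081 and 295957 normalized counts in wild-type against 270192 and 297939 in *Foxq1* cKO, led by *Cldn5*, a tight junction protein of the barrier. Pericyte genes were also abundant: the 5 of 8 listed summed to 134914 and 131249 in wild-type against 136439 and 127303 in *Foxq1* cKO, led by *Rgs5*, while *Acta2*, *Tagln* and *Myh11* of smooth muscle were not listed. Genes of other cells were also listed, at lower sums. The 7 radial glia and astrocyte markers, led by *Slc1a3*, summed to 19166 and 19498 against 15398 and 15439, the 8 microglia and macrophage markers, led by *Csf1r*, to 9597 and 10845 against 6956 and 7562, and the 8 neuron markers, led by *Map2*, to 6406 and 5659.7 against 4302 and 5925. The 6 of 7 erythroid markers that were listed, led by *Hba-a1*, summed to 20673 and 15683 against 15841 and 20479.9, with *Hbb-y* not listed, and of 4 oligodendrocyte lineage markers *Olig2* and *Sox10* were not listed and the others, led by *Olig1*, summed to 2476 and 1989 against 1323 and 3182.

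All 56 chaperone genes averaged 10 or more normalized counts over the samples and entered a comparison of 12472 genes with limma. At an unadjusted p under 0.05, 0 of them were higher and 1 was lower in *Foxq1* cKO samples, *Hspb1*. Over all genes tested, 5.22% passed that level, 2.17% as higher and 3.05% as lower, so 1 of 56 lies under the background. After Benjamini-Hochberg adjustment 0% of all genes passed 0.05 in limma, where 651 had an unadjusted p under 0.05. On the recovered reads, edgeR also gave 0 genes at an adjusted p under 0.05 with 614 unadjusted, and DESeq2 gave 59 with 804 unadjusted, with 1 chaperone gene at an unadjusted p under 0.05 in each. The median log2 fold change of the 56 genes was 0.026, beside 0.009 for all genes tested, and single genes ranged from -1.94 to 1.97. That median was 0.066 under quantile normalization and 0.0011 with a minimum mean of 50. With 1 sample left out it ran from -0.0322 to 0.0825.

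Groups that did not overlap were also no more common among the chaperone genes than elsewhere. In 12 of the 56 genes both *Foxq1* cKO samples lay above both wild-type samples, against 18% of all genes, and in 8 both lay below, against 18% of all genes. In either direction these were 35.7% of the chaperone genes and 36% of all genes tested. With 4 samples an exact two-sided permutation of the labels has no p smaller than 0.333, so this arrangement alone passes no threshold.

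**Figure D1:**
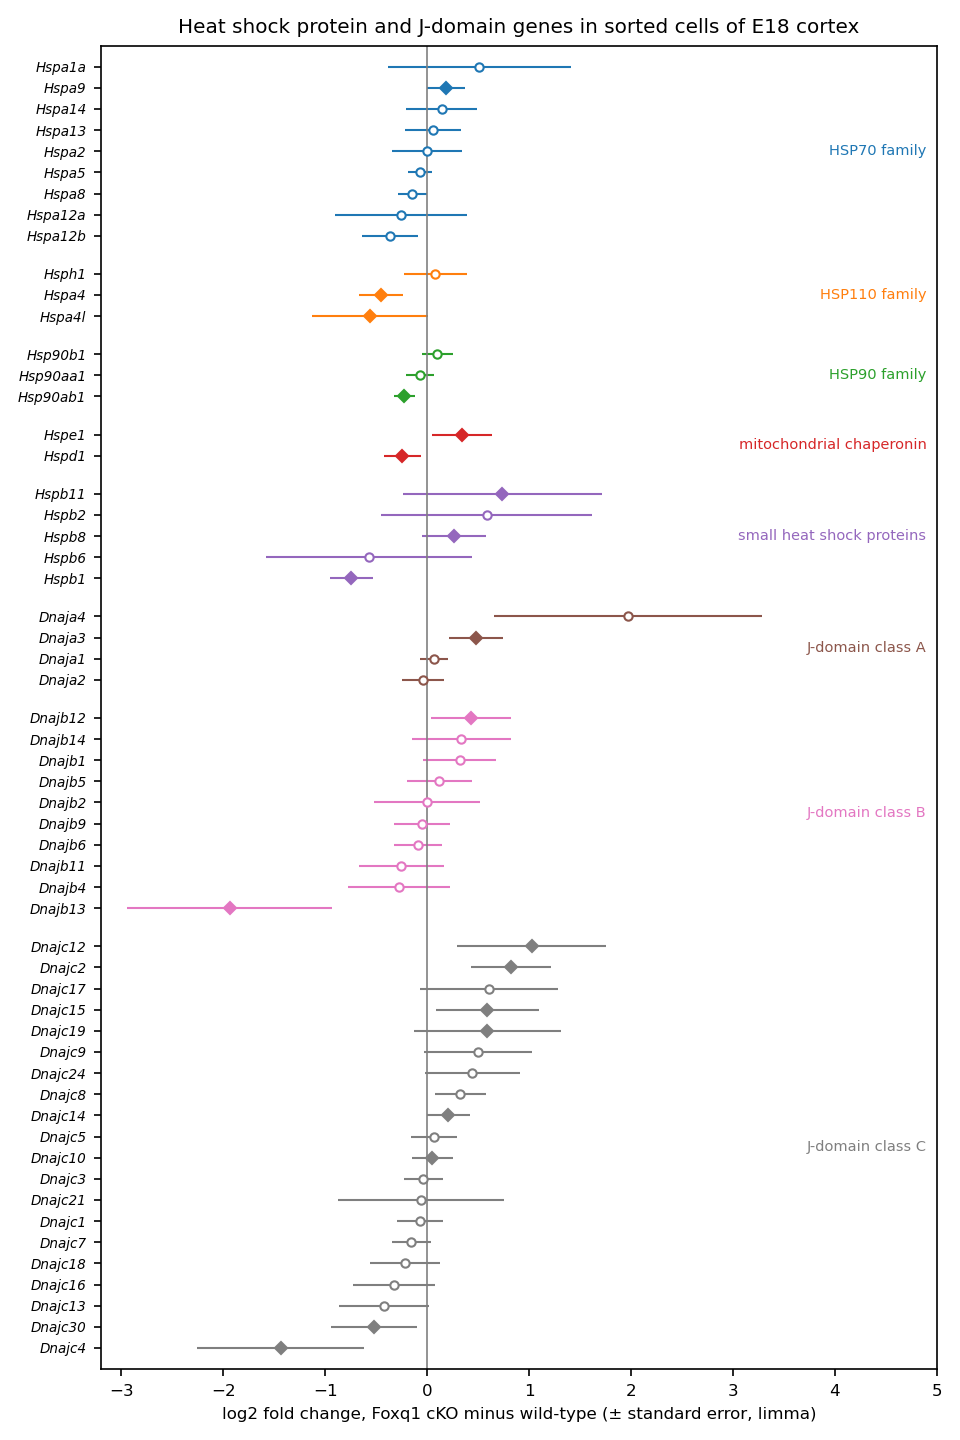
Log2 fold change (*Foxq1* cKO minus wild-type) of the 56 chaperone genes, grouped by family, with bars for the standard error from limma. Filled diamonds mark the 20 genes whose groups did not overlap and open circles the 36 whose groups did; most lie near 0, with *Hspb1* at -0.74 the one gene at an unadjusted p under 0.05.

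In the *Hspb* series, *Hspb1* had the most counts and was the 1 gene at an unadjusted p under 0.05 in limma. *Hspb1* encodes HSP27 (HSP25 in the mouse), a small heat shock protein that holds unfolded clients and binds actin filaments. It had 3877 and 4073 normalized counts in wild-type against 2083 and 2705 in *Foxq1* cKO, from 4601, 4085, 1913 and 2659 reads. Both *Foxq1* cKO samples lay below both wild-type samples, with means of 3975 ± 138 and 2394 ± 440.1 (SD, n = 2 each). The log2 fold change was -0.74 (standard error 0.208, unadjusted p = 0.0114 in limma, lower in 2 of 2 *Foxq1* cKO samples), and the adjusted p was 0.857 with Benjamini-Hochberg adjustment in limma. The unadjusted p was 0.0122 in edgeR and 0.00330 in DESeq2, but 0.0744 with limma's eBayes without a trend and 0.0773 without *Foxq1* cKO replicate 1, where the log2 fold change was -0.55.

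Cell type markers were compared between the groups beside *Hspb1*, where 18% of all genes lay lower in both *Foxq1* cKO samples and 18% higher. Of 7 radial glia and astrocyte markers 5 lay lower in both *Foxq1* cKO samples, among them *Gfap*, an intermediate filament of astrocytes (3073 and 2419.6 against 1081 and 1329 normalized counts, unadjusted p = 0.00310 in limma). The adjusted p in DESeq2 was 0.0166 for *Gfap* and 0.254 for *Hspb1*. Of 8 microglia and macrophage markers 3 lay lower and 1 higher, with *Csf1r*, the receptor of colony stimulating factor 1, at 3365 and 2579 against 1732 and 1587 (unadjusted p = 0.0109 in limma). Of 10 endothelial markers 5 lay lower and 1 higher, counts that became 3 and 3 under quantile normalization, and *Flt1*, a VEGF receptor, had an unadjusted p of 0.0463 in limma. The 5 listed pericyte genes all overlapped (1 lay higher under quantile normalization), and 1 of 8 neuron markers lay lower. Among erythroid markers 1 of 6 listed lay higher, and among oligodendrocyte lineage markers 1 of 2 listed lay lower. The part of these cells in the level of *Hspb1* was not tested, and in bulk RNA fewer cells of a type and less RNA per cell cannot be told apart.

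The read assignment of *Hspb1* is also uncertain. Of the 50-base words in its GENCODE M21 transcripts (GRCm38), 48.8% also occur on the same strand in the processed copy *Hsp25-ps1* and 38.3% on the opposite strand of *Gm9817*, and the sources used here do not state how such reads were counted.

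The other *Hspb* genes had fewer counts. *Hspb8*, which works with the cochaperone BAG3 in the removal of misfolded proteins, had 668 and 703 in wild-type against 877 and 769 in *Foxq1* cKO. The groups did not overlap, yet the log2 fold change of 0.26 was under its standard error of 0.317. *Hspb11*, a subunit of the intraflagellar transport complex of cilia despite its name, had from 16.9 to 47.8 normalized counts with wild-type replicate 1 lowest and the other 3 between 44.9 and 47.8. *Hspb2* and *Hspb6* overlapped between the groups, and *Hspb6* was far apart between the *Foxq1* cKO samples, at 272 and 45.8. *Cryab*, an alpha-crystallin of the same superfamily, had 341 and 568 in wild-type against 368 and 519 in *Foxq1* cKO, and *Cryaa* was not listed.

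The HSP70 family was led by its constitutive members. *Hspa8* (HSC70), the general cytosolic HSP70, had 20885 and 20253 normalized counts in wild-type against 16520.3 and 20962 in *Foxq1* cKO. One *Foxq1* cKO sample lay below and the other above both wild-type samples, and the log2 fold change of -0.14 was no larger than its standard error of 0.145. *Hspa5* (BiP) of the endoplasmic reticulum had 14341 and 15494 in wild-type against 14001 and 14378 in *Foxq1* cKO, with overlapping groups and a log2 fold change of -0.07. That value became 0.0135 under quantile normalization. *Hspa9* (mortalin), the HSP70 of the mitochondrial matrix, had 2854 and 2513 against 3039.5 and 3055. Its groups did not overlap, and its log2 fold change was 0.19 (standard error 0.188), from 0.0945 without wild-type replicate 2 to 0.28 without wild-type replicate 1.

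The stress-inducible HSP70 was scarce. *Hspa1a*, which is nearly silent without stress and strongly induced by heat, had 85.9 and 33.9 normalized counts in wild-type against 96.9 and 62.1 in *Foxq1* cKO. The groups overlapped, and the wild-type samples differed more from each other than the group means did. Per kilobase of annotated exon, *Hspa1a* had 29.0 and 11.4 normalized counts in wild-type, where *Hspa8* had 4856 and 4709. *Hspa1a* shares 58.8% of its 50-base words with *Hspa1b* and *Hspa8* shares 34.6% with *Gm15459*, so these levels depend on how shared reads were counted. *Hspa12b*, a divergent HSP70 known from endothelial cells, had 3720.2 and 5059.5 in wild-type against 2702 and 4174 in *Foxq1* cKO. These groups overlapped (log2 fold change -0.37, standard error 0.275), and the value ran from -0.0558 without *Foxq1* cKO replicate 1 to -0.68 without replicate 2. The remaining members *Hspa2*, *Hspa12a*, *Hspa13* and *Hspa14* overlapped as well, and *Hspa12a* was far apart between the wild-type samples, at 1002 and 282.

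In the HSP110 family, 2 of 3 members lay lower in both *Foxq1* cKO samples, as 18% of all genes did, and 0 passed an unadjusted p of 0.05 in limma. *Hspa4*, a nucleotide exchange factor of HSP70, had 2738 and 3461 normalized counts in wild-type against 2090.2 and 2409 in *Foxq1* cKO. All *Foxq1* cKO values were below the wild-type values, with a log2 fold change of -0.46 (standard error 0.218, unadjusted p = 0.0806 in limma). Leaving out single samples moved *Hspa4* from -0.63 without wild-type replicate 1 (unadjusted p = 0.0468 in limma) to -0.29 without wild-type replicate 2 (unadjusted p = 0.312), and the p was also 0.289 without *Foxq1* cKO replicate 1 and 0.126 without replicate 2. *Hspa4l*, its inducible relative, had 248 and 503 against 231 and 246, so the distance rested mostly on wild-type replicate 2. The log2 fold change of *Hspa4l* went from -0.57 to -0.0554 without that sample and to -1.08 without wild-type replicate 1. *Hsph1* (HSP105), induced by heat, had 1779.6 and 1099.6 in wild-type against 1464 and 1493 in *Foxq1* cKO. Its *Foxq1* cKO values lay between the wild-type values.

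Per kilobase of annotated exon, the highest level of the 56 genes was that of *Hsp90ab1*, the constitutive cytosolic HSP90 (9319 and 8744 normalized counts per kilobase in wild-type). Unscaled for length, it had 27947 and 26223 normalized counts in wild-type against 23271 and 23032 in *Foxq1* cKO. The groups did not overlap, and the spread within each was small beside the distance between them (27085 ± 1219 against 23152 ± 169, SD, n = 2 each). The log2 fold change was -0.23 (standard error 0.103, unadjusted p = 0.0702 in limma). In limma the unadjusted p of *Hsp90ab1* was 0.0622 with a minimum mean of 50 but 0.456 with eBayes without a trend. It was 0.0816 in edgeR and 0.143 in DESeq2. Under quantile normalization the log2 fold change was -0.17 (unadjusted p = 0.145 in limma). *Hsp90aa1*, the inducible cytosolic form, had 10914 and 9486 against 9635 and 9717, and *Hsp90b1* (GRP94) of the endoplasmic reticulum had 11309 and 14226 against 13999 and 13164. Both overlapped between the groups, and the sign of *Hsp90aa1* changed from -0.07 to 0.05 under quantile normalization. Of the words of *Hsp90aa1*, 41.8% also occur in *Gm12346*.

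The 7 listed members taken as mitochondrial, a choice that need not be complete, all had groups that did not overlap. That was so for 36% of all genes tested, and under quantile normalization the groups of *Hspd1* overlapped. *Hspd1* (HSP60) had 5257 and 6872 normalized counts in wild-type against 4937 and 5227 in *Foxq1* cKO, and its partner *Hspe1* (HSP10) had 909 and 788 against 1166 and 982. The groups did not overlap for either gene, and the directions were opposite, with log2 fold changes of -0.24 (standard error 0.185) and 0.34 (standard error 0.294). The value of *Hspd1* rested on wild-type replicate 2: it was -0.0495 without that sample and -0.44 without wild-type replicate 1, and -0.13 under quantile normalization. The ratio of *Hspd1* to *Hspe1* counts was 5.78 and 8.73 in wild-type against 4.23 and 5.32 in *Foxq1* cKO. Both *Foxq1* cKO ratios were below both wild-type ratios, which follows from the opposite directions of the 2 genes. Processed copies of both genes share their sequence, 38.0% of the words of *Hspd1* with *Hspd1-ps3* and 17.9% of those of *Hspe1* with *AC117239.2*.

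The other members taken as mitochondrial, apart from *Hspa9*, are J-domain proteins. *Dnaja3* (TID1), the class A cochaperone of mortalin, had 1208 and 1239 in wild-type against 1989 and 1459.8 in *Foxq1* cKO (log2 fold change 0.48, standard error 0.266), and 0.25 without *Foxq1* cKO replicate 1. *Dnajc15* and *Dnajc19*, J-domain proteins at the protein import motor of the inner membrane, had 257 and 200.4 against 327 and 358, and 80.9 and 84.7 against 144 and 109. Both had a log2 fold change of 0.59, with standard errors of 0.508 and 0.719. *Dnajc30*, a J-domain protein of the inner membrane, had 453 and 496 against 341 and 320.4 (log2 fold change -0.52, standard error 0.425), and 24.0% of its words occur on the opposite strand in *Bud23*. With *Hspa9*, 5 of the 7 lay higher and 2 lower in *Foxq1* cKO, against 18% of all genes each way, 0 passed an unadjusted p of 0.05, and under quantile normalization 5 lay higher and 1 lower.

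**Figure D2:**
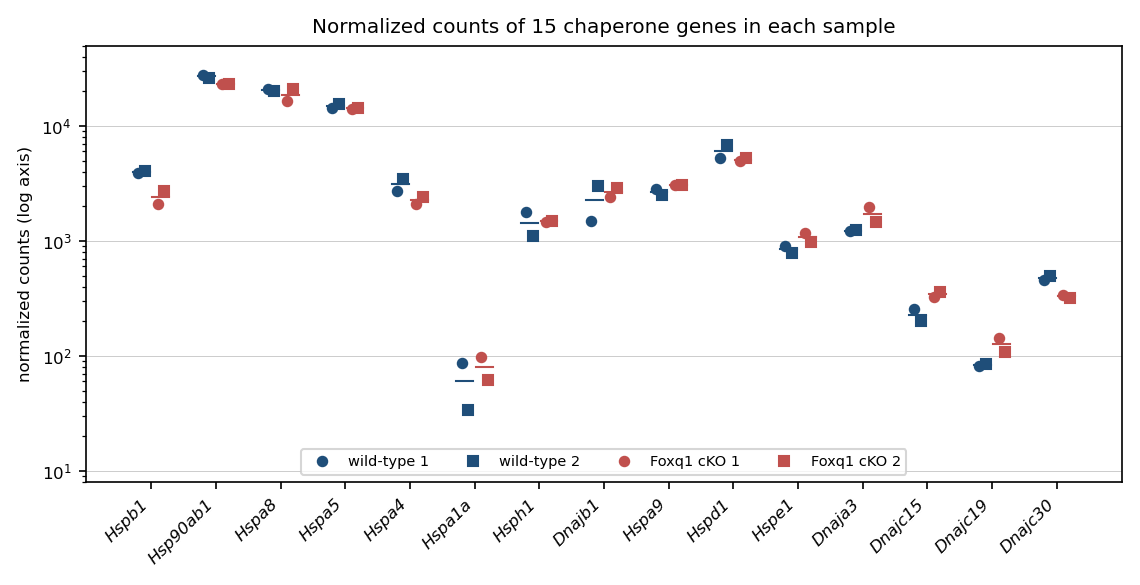
Normalized counts on a log axis of 15 chaperone genes in each of the 4 samples, wild-type in blue and *Foxq1* cKO in red, with circles for replicate 1, squares for replicate 2 and lines for the group means. *Hspb1* is lower in both *Foxq1* cKO samples (2083 and 2705 against 3877 and 4073), and *Hspa1a* and *Dnajb1* differ as much within wild-type as between the groups.

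The remaining class A and class B J-domain proteins overlapped between the groups in most cases. *Dnaja1*, the main class A partner of HSC70 in the cytosol, had 8237 and 8360.4 normalized counts in wild-type against 9085 and 8319 in *Foxq1* cKO, a log2 fold change of 0.07. *Dnaja2* ranged from 1912 to 2052 over the 4 samples. *Dnaja4* had a log2 fold change of 1.97 in limma, on few and scattered counts (56.5 and 7.98 against 189 and 40.7), and 42.7% of its words lie opposite *Wdr61*. *Dnajb6*, which keeps aggregation-prone proteins soluble, led class B with 2610.4 and 3453 against 2512 and 3185. *Dnajb1* (HSP40), the heat-inducible partner of HSP70, had 1498 and 3031 against 2426 and 2907. Wild-type replicate 1 alone was low, and the log2 fold change of *Dnajb1* ran from -0.19 without it to 0.83 without wild-type replicate 2, where its unadjusted p was 0.0219 in limma.

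Of the other 8 class B genes, *Dnajb12* of the endoplasmic reticulum membrane lay higher in both *Foxq1* cKO samples and *Dnajb13*, known from sperm flagella and motile cilia, lay lower. *Dnajb13* rested on 122 and 42 reads in wild-type against 11 and 22 in *Foxq1* cKO. Its unadjusted p was 0.101 in limma (log2 fold change -1.94). With limma's eBayes without a trend *Dnajb13* was the 1 chaperone gene under an unadjusted p of 0.05.

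Class C is the most diverse, since its members share little beyond the J-domain. The gene with the most counts, *Dnajc3* (P58IPK), a cochaperone of BiP in the endoplasmic reticulum, had 4085 and 3701 normalized counts in wild-type against 4186 and 3434 in *Foxq1* cKO, with overlapping groups. *Dnajc2* (MPP11 or ZRF1), a ribosome-associated cochaperone, had 402 and 694 against 939.5 and 925. Both *Foxq1* cKO samples were higher and close together, while the wild-type samples were apart (log2 fold change 0.82, standard error 0.392, unadjusted p = 0.0816 in limma). The log2 fold change of *Dnajc2* was 1.21 without wild-type replicate 2 (unadjusted p = 0.0207) but 0.43 without wild-type replicate 1 (unadjusted p = 0.290), and the p was 0.224 and 0.214 without *Foxq1* cKO replicates 1 and 2. *Dnajc12*, a cochaperone of aromatic amino acid hydroxylases, had 79.2 and 212 against 321 and 219, so wild-type replicate 2 and *Foxq1* cKO replicate 2 nearly met, and its log2 fold change of 1.02 ran from 0.32 without wild-type replicate 1 to 1.73 without wild-type replicate 2. *Dnajc4*, a little studied member, had 193 and 315 against 163 and 49.8. Its groups did not overlap (log2 fold change -1.44, standard error 0.821), and the value ran from -2.28 without *Foxq1* cKO replicate 1 to -0.59 without replicate 2. Of the 20 class C genes, 6 lay higher and 2 lower in both *Foxq1* cKO samples and 12 overlapped, a share apart of 40%, near the 36% of all genes.

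Sorted by place in the cell, no compartment held a gene past an unadjusted p of 0.05 in limma other than *Hspb1*. Groups that did not overlap are counted here beside 18% of all genes in each direction. Of 12 members taken as endoplasmic reticulum genes, a choice that need not be complete, 2 lay higher and 0 lower in both *Foxq1* cKO samples. Their median log2 fold change was -0.04, which became 0.03 under quantile normalization. Of 8 listed heat-inducible cytosolic chaperones 1 lay higher and 2 lower, with a median of 0.07. Under quantile normalization 2 of these chaperones lay higher and 2 lower, and the median was 0.13. The 5 nuclear and ribosomal J-domain genes had a median of 0.50, with *Dnajc2* the 1 whose groups did not overlap, and wild-type replicate 1 held their lowest sum (3199, against 5239, 5160.2 and 5821). Both listed endosome and vesicle J-domain genes, *Dnajc5* (cysteine string protein) and *Dnajc13*, overlapped.

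Replicates of the chaperone genes differed as follows. The median difference between wild-type replicates was 0.41 on the log2 scale for the chaperone genes and 0.53 for all genes tested, and between *Foxq1* cKO replicates 0.27 and 0.41. Among genes averaging 1000 or more counts the values were close, 0.28 and 0.28 between wild-type replicates and 0.20 and 0.23 between *Foxq1* cKO replicates. The median size of the log2 fold change was 0.27 for the chaperone genes and 0.37 for all genes tested. The chaperone genes also had more counts than most, with a median of 1098 against 494. Their summed level was 158031 and 164881 normalized counts in wild-type against 150866 and 156065 in *Foxq1* cKO, of which the 7 most abundant genes held from 60.6% to 62.6%. Both *Foxq1* cKO sums lay below both wild-type sums, whereas the shares of all counts overlapped.

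Genes that work with these chaperones were taken from lists of their own. Over all genes tested 5.22% had an unadjusted p under 0.05 in limma. Of 15 HSP90 cochaperones none did in limma or edgeR, and 1 did in DESeq2. This was *Unc45a*, which helps myosin to fold (unadjusted p = 0.0549 in limma, 0.0722 in edgeR and 0.0248 in DESeq2). The most abundant, *Cdc37*, which brings kinases to HSP90, had 7474 and 6740.4 normalized counts in wild-type against 7257 and 7841 in *Foxq1* cKO. Of 13 HSP70 exchange and client handling factors 1 was higher and 0 lower, and *Grpel1*, a mitochondrial nucleotide exchange factor, was the most abundant. The higher gene was *Hyou1* (GRP170), at 189.6 and 618 in wild-type against 1027 and 909 in *Foxq1* cKO (log2 fold change 1.49, standard error 0.604, unadjusted p = 0.0478 in limma, 0.0788 in edgeR and 0.0246 in DESeq2). Its *Foxq1* cKO values lay above both wild-type values, which were themselves far apart.

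Of the 14 subunits of TRiC and prefoldin, which fold actin and tubulin, 0 were higher and 1 was lower at an unadjusted p under 0.05 in limma, beside 5.22% of all genes in either direction. Their median log2 fold change was 0.16, and 6 lay higher and 3 lower in both *Foxq1* cKO samples (6 and 2 under quantile normalization), beside 18% of all genes each way. *Tcp1*, a TRiC subunit, had 5436 and 5510.1 in wild-type against 3986 and 3952 in *Foxq1* cKO, with replicates close together in both groups (log2 fold change -0.46, standard error 0.154, unadjusted p = 0.0232 in limma). The most abundant subunit, *Cct5*, overlapped at 12650.3 and 10683 against 12242 and 11244. Among 17 genes of endoplasmic reticulum folding and the unfolded protein response, *Hyou1* was higher and *Calr* was lower at that level. The list had a median log2 fold change of -0.25, with 2 genes higher and 5 lower in both *Foxq1* cKO samples. *Calr* encodes calreticulin, a chaperone of glycoproteins, and had 11234 and 13059 against 9190.4 and 9563 (log2 fold change -0.37, standard error 0.138, unadjusted p = 0.0358 in limma). The most abundant of the list, the disulfide isomerase *Pdia3*, overlapped at 36131 and 37629.8 against 36359 and 34317. In limma with Benjamini-Hochberg adjustment *Hyou1* (log2 fold change 1.49), *Tcp1* (-0.46) and *Calr* (-0.37), each apart in 2 of 2 *Foxq1* cKO samples, had an adjusted p of 0.857.

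The remaining lists held 0 genes past an unadjusted p of 0.05 in limma, apart from the immediate early genes. Of the heat shock factors, *Hsf1*, the main activator of the heat shock response, overlapped at 1271 and 916 against 1159 and 1158, and *Hsf2* had 538 and 254 against 47.9 and 216 (unadjusted p = 0.0844), while *Hsf4* was not listed. Of 9 mitochondrial folding and proteolysis genes, led by *Grpel1*, 2 lay higher and 1 lower in both *Foxq1* cKO samples, and of 4 J-domain proteins outside the naming rule, led by *Gak*, 0 lay higher and 1 lower, beside 18% of all genes in each direction. Of 11 immediate early genes, which dissociation and sorting can induce, 1 was lower at an unadjusted p under 0.05 in limma. This was *Egr1* (12483 and 11349 against 8486 and 8734, log2 fold change -0.47, unadjusted p = 0.0112 in limma). Over all genes tested 5.22% passed that level in either direction, 3.05% as lower. In this list 2 genes lay higher and 3 lower in both *Foxq1* cKO samples (3 and 2 under quantile normalization), beside 18% of all genes each way. The most abundant, *Jun*, had 24488 and 24162 against 25479 and 25943, while *Nr4a1* had from 137 to 281. The part of these genes in the levels of the heat-inducible chaperones was not tested.

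The promoters of the chaperone genes were searched for the letters of the heat shock element, the binding site of heat shock factors, which is built of alternating GAA and TTC blocks. RefSeq windows on GRCm38.p6 from 250 bases before to 50 after a gene's start were found for 45 of the 56 genes, 61 windows in all; *Hspa8*, *Hspa9*, *Hspa13*, *Hsp90aa1*, *Hsp90ab1*, *Hspb2*, *Dnajc2*, *Dnajc5*, *Dnajc12*, *Dnajc18* and *Dnajc30* were not matched. GAANNTTC or TTCNNGAA, each its own reverse complement and so read on both strands, occurred in 14 of the 61 windows (23.0%), against 15.1% of all 32851 windows, and in 12 of the 45 genes (26.7%), against 17.0% of all 27025 genes with a window. The chaperone genes had more windows per gene than all genes, which raises a share of genes. Runs of 3 alternating blocks occurred in 6 of the 61 windows (9.84%), against 0.603% of all windows. By gene these were 4 of the 45 (*Dnajb6*, *Hspd1*, *Hspe1* and *Hsph1*, 8.89%), against 0.662% of all genes. Windows of *Hspd1* and *Hspe1* hold the same run, so that site is counted for both genes, here and in the shares above. The 12 genes had a median log2 fold change of 0.06, with 3 higher and 2 lower in both *Foxq1* cKO samples, and the 33 without had a median of -0.00066, with 6 higher and 4 lower, beside 18% of all genes in each direction. The forkhead core TGTTTA, on either strand, occurred in 3 of the 61 windows (4.92%), against 13.4% of all windows, and in 3 of the 45 genes (6.67%), against 15.1% of all genes. The paper gives GTTTC as the motif that FOXQ1 prefers, and GTTTC was not searched. A match of letters describes the sequence and does not show binding.

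The sequences that follow, from RefSeq and GRCm38.p6, show the element at *Hspb1*, the 1 chaperone gene at an unadjusted p under 0.05 in limma, at the classical heat-inducible gene and at the head-to-head chaperonin gene pair, written 5′ to 3′ with the matches in capitals. In *Hspb1* (chr5:135887669-135887918, plus strand) the 2 matches begin at -117 and -97 from the start, and in *Hspa1a* (chr17:34972157-34972406, minus strand) 1 match begins at -104; no GENCODE M21 exon overlaps either stretch. *Hspd1* and *Hspe1* have 215 bases between their RefSeq starts, and windows of both genes hold the same 3 overlapping matches, shown with their flanks (chr1:55088053-55088082, plus strand, 66 bases from the *Hspe1* start) in the first exon of the transcript *Hspd1-202*, which starts farther upstream.
Hspb1: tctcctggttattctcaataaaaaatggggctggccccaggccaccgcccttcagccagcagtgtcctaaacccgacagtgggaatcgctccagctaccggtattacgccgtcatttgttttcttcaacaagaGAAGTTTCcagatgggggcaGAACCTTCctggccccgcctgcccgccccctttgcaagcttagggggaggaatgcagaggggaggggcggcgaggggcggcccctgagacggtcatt
Hspa1a: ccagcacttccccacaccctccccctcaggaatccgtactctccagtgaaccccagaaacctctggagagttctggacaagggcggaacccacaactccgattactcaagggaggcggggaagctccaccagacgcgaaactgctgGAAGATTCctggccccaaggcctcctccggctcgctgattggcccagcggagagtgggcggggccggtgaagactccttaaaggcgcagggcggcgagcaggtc
Hspd1 and Hspe1: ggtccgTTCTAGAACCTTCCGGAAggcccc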

How the data were processed

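RNA-seq of 2 wild-type and 2 *Foxq1* cKO samples was compared, with groups and replicate numbers from the sample labels. The authors deposited a normalized signal per gene; the submitters' processing notes name Bowtie2 2.2.3, TopHat2 2.0.12, HTSeq 0.6.0 and mm9. The deposited signal equals reads divided by 1 size factor per sample (from 0.919 to 1.19), and 100% of values came out as whole reads within 0.01. Repeated lines were collapsed from 1207361 to 12693 symbols, each with at least 1 read per sample. A gene without a read in even 1 sample is therefore not listed, whatever its level in the other samples. Genes with a mean of at least 10 were tested on log2(value + 1) with limma 3.58.1 (eBayes with a trend, R 4.3.3) over all genes with Benjamini-Hochberg adjustment; edgeR 4.0.16 and DESeq2 1.42.0 on recovered reads, other pseudocounts, filters and scalings, the replicate block and each sample left out were alternatives. The test was tested on simulated counts. Over all genes the standard error of log2 fold changes had a median of 0.496. Named genes were those with an unadjusted p under 0.05, the most abundant of each list, a set of well-known chaperones, and, among members averaging 50 or more whose groups were apart, the 5 with the largest rise and the 5 with the largest fall; others named, such as *Dnaja4*, *Dnajb13*, *Hspb8* and *Hsf2*, were chosen after their values were seen. Members and lists were chosen with earlier results of these data known. Exon lengths, shared words and exons came from GENCODE M21 (GRCm38), and promoters from RefSeq. Tables and plots were made with Python 3.11.15 (pandas 2.3.3, matplotlib 3.10.9).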

Additional observations from a re-analysis of the deposited data

How the results depend on the processing

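With all 4 samples kept, the 10 alternatives gave from 592 to 804 genes at an unadjusted p under 0.05 against 651, and 1 chaperone gene in each, *Hspb1* except with eBayes without a trend, where it was *Dnajb13* and *Hspb1* had a log2 fold change of -0.74 (unadjusted p = 0.0744). DESeq2 gave 59 genes at an adjusted p under 0.05 where limma gave 0; the cause was not tested. Under quantile normalization the median of the chaperone genes was 0.066 instead of 0.026, and the log2 fold changes of *Dnajc3* (0.0397), *Hsp90aa1* (0.0473) and *Hspa5* (0.0135) reversed; the cause was not tested. With a minimum mean of 50, which tests fewer genes, that median was 0.0011. Over the 26 named genes, 256 other results under these alternatives kept their direction and their side of an unadjusted p of 0.05, but not all their size: under quantile normalization *Hspa8* was -0.0454, *Hspd1* -0.13, *Hsp90b1* 0.21, *Dnaja1* 0.15 and *Dnajb6* -0.019, and *Hsph1* was 0.0411 in edgeR and 0.0381 in DESeq2. Whether the replicate numbers pair the samples is not known. The correlation of the replicate differences was 0.0325 over genes, and a low value does not exclude pairing by litter or batch. With the replicate block, 693 genes and 1 chaperone gene passed an unadjusted p of 0.05. There, 0 genes passed adjustment and the median was 0.026. Leaving out 1 sample leaves a lone sample that is assumed to vary like the other group. For that reason the counts of such fits cannot show whether chaperone genes passed more often than all genes. Genes at an unadjusted p under 0.05 then ranged from 276 (without *Foxq1* cKO replicate 1) to 1569 (without wild-type replicate 2), adjusted from 0 to 0, chaperone genes from 0 to 6 in the same order, and 3 without wild-type replicate 1, and the median from -0.0322 to 0.0825. Signs changed within the ranges of *Dnajb1* (-0.19 to 0.83), *Dnajb6* (-0.29 to 0.12), *Dnajc3* (-0.18 to 0.11), *Hsp90aa1* (-0.17 to 0.0286), *Hsp90b1* (-0.0676 to 0.26), *Hspa1a* (-0.15 to 1.17), *Hspa8* (-0.32 to 0.0275) and *Hsph1* (-0.27 to 0.43); the cause was not tested. Sizes also moved for *Dnaja1* (0.0037 to 0.13), *Hspa5* (-0.13 to -0.0154), *Hspe1* (0.21 to 0.46) and *Dnajc19* (0.39 to 0.79). Low counts such as those of *Hspa1a* limit what could be seen.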
